A study of Danio rerio with 4 samples.

Results

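acadm, acadl and ehhadh, which encode enzymes of fatty acid oxidation, were chosen by name because of their change in the authors' deposited table, and all 3 were found among its 2477 genes. The libraries came from sorted primordial germ cells, which give rise to the gametes, of AB strain zebrafish at 13 hours post fertilization. One group had received a control morpholino and the other a morpholino against dead end, with 2 libraries each. Morpholinos are stable oligonucleotide analogs that pair with a target RNA and block its translation or splicing. The protein Dead end binds RNA in germ cells and protects some germline messages from repression by microRNAs. In both groups cells were gated on EGFP specific to the germline, and polyadenylated RNA was sequenced. The labels name neither the promoter of the EGFP nor the kind of morpholino block, nor do they say whether the libraries came from separate clutches.

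Fatty acid oxidation shortens acyl-CoA chains and releases acetyl-CoA. In mitochondria, acyl-CoA dehydrogenases open each round by placing a double bond next to the thioester, and they pass electrons to the respiratory chain. Peroxisomes run a parallel route on very long, branched and dicarboxylic chains, where acyl-CoA oxidases take the place of the dehydrogenases and a bifunctional enzyme carries out the following hydration and dehydrogenation. Peroxisomes import their enzymes from the cytosol with a set of proteins called peroxins.

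All 3 oxidation genes were lower in sorted cells of dead end morphants, by 6.03-fold for acadm, 7.37-fold for ehhadh and 10.5-fold for acadl in the authors' deposited table. Those values are what chose the genes, so they are given as a description. Other listed genes of the mitochondrial and peroxisomal route, of carnitine transport and of peroxisome assembly that passed the authors' q were all lower too. At q under 0.01, where 16.8% of all genes in the table were lower and 42.3% higher, only peroxisome assembly genes among these kept their call. Of those, pex2 had 2.98 FPKM with the control morpholino and a listed value of 0 with the dead end morpholino. By q under 0.05 and 1 FPKM or more in the higher group, all 9 lists held 12 other lower genes and 2 higher. The 2 higher ones were acsl2 and nrf1, and both kept their call at q under 0.01. The lists were chosen with earlier results of these data known. Of the 237 other listed genes, 222 were not in the table used here, which held only genes with q under 0.05. The shares over all genes there were 33.6% lower and 64.6% higher. Most germ cell markers passed the authors' q and were also lower, and the 35 of 62 somatic markers in the table were all higher. In bulk libraries, fewer cells of a type and less RNA per cell cannot be told apart.

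acadm encodes medium-chain acyl-CoA dehydrogenase, the mitochondrial enzyme that opens the oxidation of medium-length chains. The authors' deposited table gave acadm (ENSDARG00000038900, chromosome 2, 26814435 to 26820516, positions taken as GRCz10) a control level of 93.1 FPKM and a dead end level of 15.4 FPKM. FPKM counts fragments per length of transcript and per mapped fragments of the library, so levels can be set side by side between genes. The dead end level was 16.6% of the control level, a log2 change of -2.59 with q = 0.00107 in the authors' deposited table. This q is the smallest there and is shared by 774 genes, 150 of them lower.

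acadl encodes long-chain acyl-CoA dehydrogenase, which acts on longer chains in the mitochondrial matrix. In the authors' deposited table acadl (ENSDARG00000088357, chromosome 18, 39506477 to 39524839) had 19.8 FPKM with the control and 1.88 FPKM with the dead end morpholino. That left 9.52% of the control level, a log2 change of -3.39 with q = 0.0121 in the authors' deposited table. acadl thus had the largest ratio of the 3 genes and the weakest q, with the lowest level in dead end morphants.

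ehhadh encodes a bifunctional enzyme of the peroxisome, which joins an enoyl-CoA hydratase and a 3-hydroxyacyl-CoA dehydrogenase in 1 chain. The authors' deposited table put ehhadh (ENSDARG00000070029, chromosome 9, 12457022 to 12472523) at a control level of 20.0 FPKM and a dead end level of 2.71 FPKM. The dead end level was 13.6% of the control level, a log2 change of -2.88 with q = 0.00107 in the authors' deposited table. The locus of none of the 3 genes overlapped that of another gene of the table.

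**Figure D1:**
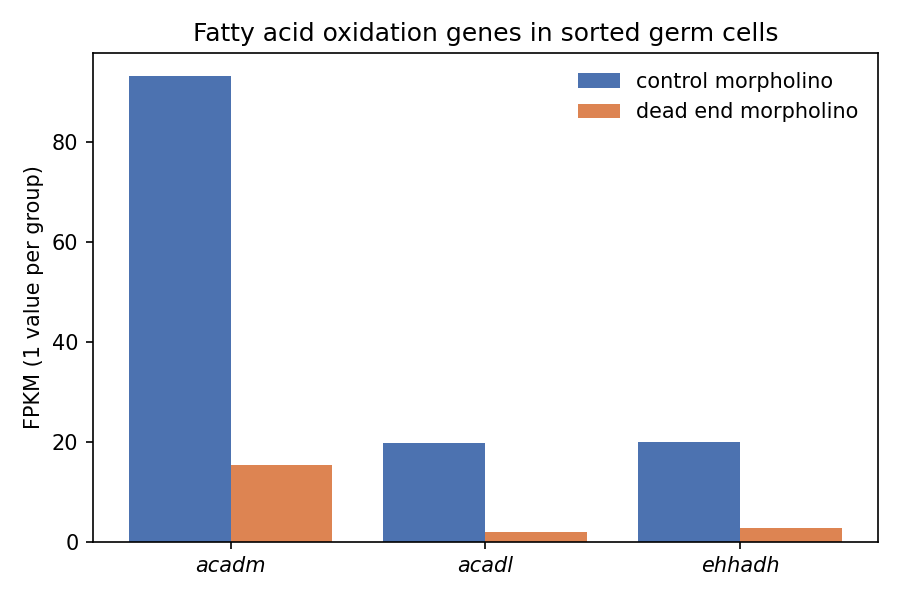
FPKM of acadm, acadl and ehhadh with the control (blue) and dead end morpholino (orange), 1 bar per gene and group with no error bar, since the table holds 1 value that combines the 2 libraries of a group. acadm falls from 93.1 to 15.4 FPKM, while acadl and ehhadh start at a like level and end at 1.88 and 2.71 FPKM.

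In controls acadm was the most abundant of the 3, at 4.70 times the FPKM of acadl and 4.66 times that of ehhadh in the authors' deposited table. The control levels of ehhadh and acadl differed by a ratio of 1.01. In dead end morphants the order was acadm, ehhadh, acadl, with acadm at 8.20 times the FPKM of acadl in the authors' deposited table. Because each group has 1 value, whether neighbours in either order differ beyond the spread between libraries could not be computed here. By control FPKM, acadm ranked 211 of the 2477 genes, against 1078 for ehhadh and 1088 for acadl. Of 832 lower genes, the 712 with both values above 0 were ranked by fall, leaving out those at 0 in dead end morphants. There acadl had the fall of rank 25, ehhadh that of rank 54 and acadm that of rank 88. The median fall over the 712 ranked genes was 3.08-fold. Because the 3 genes were chosen by their fall, their ranks are a description only.

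The count of 3 lower of 3 stands beside a table in which 33.6% of genes were lower and 64.6% higher when called by q under 0.05 and 1 FPKM or more in the higher group. Every gene of the table had q under 0.05, so these shares are of genes the authors had already listed, and nothing is read from them for genes chosen by their fall. At q under 0.01, where 16.8% of the table was lower and 42.3% higher, acadm and ehhadh remained and acadl did not.

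Among the other 237 genes of 9 lists on fatty acid and peroxisome biology, 12 were lower and 2 higher by the same call. In the whole table that call gave 832 lower and 1599 higher genes. Shares given beside the lists are of genes in the table, while list sizes also count genes absent from it. At q under 0.01 the split was 3 lower and 2 higher, beside 416 lower and 1047 higher in the whole table. The 3 lower ones were the peroxin genes pex5, pex19 and pex2. Of these, pex2 had 2.98 FPKM with the control morpholino and a listed value of 0 with the dead end morpholino. No further gene of mitochondrial oxidation, carnitine transport or peroxisomal oxidation kept its call. Another 222 were not in the table used here and were not analysed here. The remaining one, rxrab, a retinoid X receptor gene, reached 0.801 FPKM with the control morpholino and had a listed value of 0 with the dead end morpholino, so it fell under the FPKM minimum. Over the 13 called genes with both values above 0, the 2 higher ones included, the median log2 change was -1.58 in the authors' deposited table. Over all called genes of the table with both values above 0 it was 1.26, and over the lower ones of these -1.62. No test was run on the lists.

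The mitochondrial oxidation list had 3 further called genes, all lower. hadhaa encodes the alpha subunit of the mitochondrial trifunctional protein, which carries out the later steps on long chains. It fell 2.98-fold (control 38.6 FPKM, dead end 12.9 FPKM, q = 0.0138) in the authors' deposited table. hadhaa has a close paralog, hadhab, with which reads could be shared. The acyl-CoA dehydrogenase family gene acad11 fell 3.57-fold (control 8.30 FPKM, dead end 2.32 FPKM, q = 0.0357) in the authors' deposited table. eci2, which encodes an enoyl-CoA isomerase that lets unsaturated chains enter the cycle and stands in the peroxisomal list as well, fell 3.09-fold (control 23.5 FPKM, dead end 7.60 FPKM, q = 0.0215) there. None of these 3 kept its call at q under 0.01. Of 36 listed genes of the mitochondrial route, 31 were not in the table used here. The rest were these 3 and acadm and acadl, which were chosen by their fall. By the same call, 33.6% of all genes in the table were lower and 64.6% higher.

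Carnitine carries long acyl chains into mitochondria. Of the 15 genes of that list, 1 was called and 14 were not in the table used here. Over all genes there, 33.6% were lower and 64.6% higher by the same call. slc25a20, the carnitine-acylcarnitine carrier of the inner membrane, fell 2.57-fold (control 41.8 FPKM, dead end 16.3 FPKM, q = 0.0142) in the authors' deposited table. In peroxisomal oxidation, 3 of 28 listed genes were called and 25 were not in the table used here. Of the called ones, ehhadh was chosen by its fall, and eci2 was already counted in the mitochondrial list. The other, pecr, which encodes a peroxisomal enoyl-CoA reductase, had a control level of 15.3 FPKM and a dead end level of 3.07 FPKM in the authors' deposited table, a log2 change of -2.32 (q = 0.0408).

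Of 19 genes of the peroxisome assembly list, 4 were called lower and none higher, and 15 were not in the table used here. The shares over all genes of the table were 33.6% lower and 64.6% higher. pex5, the import receptor for most matrix proteins of the peroxisome, fell 4.83-fold (control 21.9 FPKM, dead end 4.53 FPKM, q = 0.00381) in the authors' deposited table. pex19 and pex3, which insert proteins into the peroxisomal membrane, showed smaller falls. They fell 2.92-fold (control 45.2 FPKM, dead end 15.5 FPKM, q = 0.00637) and 2.44-fold (control 21.4 FPKM, dead end 8.75 FPKM, q = 0.0421) in the authors' deposited table. pex2, a ubiquitin ligase gene of the import complex, had 2.98 FPKM with the control morpholino and a listed value of 0 with the dead end morpholino (q = 0.00107) in the authors' deposited table, where a 0 can be a failed estimate.

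**Figure D2:**
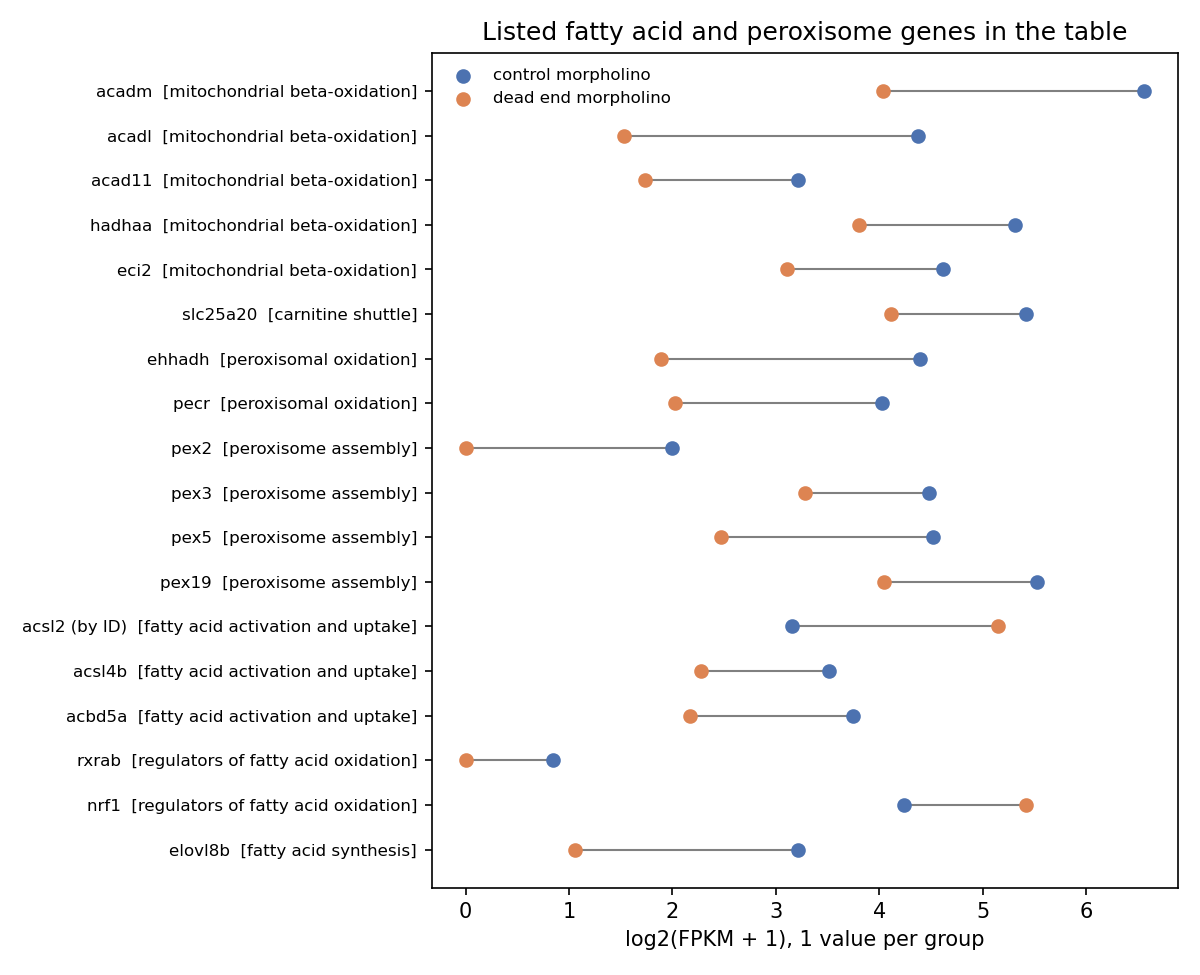
Level of each listed gene of the table on the log2(FPKM + 1) scale with the control (blue) and dead end morpholino (orange), 1 value per group, with the list of the gene in brackets. The orange point lies left of the blue one for all genes shown except acsl2 and nrf1; rxrab was under the 1 FPKM minimum and was not called.

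Of 37 listed genes that activate, take up or bind fatty acids, 2 were lower and 1 higher, and 34 were not in the table used here. By the same call, 33.6% of all genes there were lower and 64.6% higher. acsl4b, a long-chain acyl-CoA synthetase gene, fell 2.71-fold (control 10.4 FPKM, dead end 3.85 FPKM, q = 0.0419) in the authors' deposited table. acbd5a, which encodes an acyl-CoA-binding protein of the peroxisomal membrane, fell 3.54-fold (control 12.4 FPKM, dead end 3.50 FPKM, q = 0.0173) there. The third called gene of this list rose. It carries a clone name in the table, and a reference table of gene names pairs its identifier, ENSDARG00000078399, with the acyl-CoA synthetase gene acsl2. acsl2 rose 4.35-fold (control 7.93 FPKM, dead end 34.4 FPKM, q = 0.00107) in the authors' deposited table.

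Of 35 listed regulators of fatty acid oxidation, 1 was called, and rxrab was under the FPKM minimum. The other 33, the PPAR and PGC-1 genes among them, were not in the table used here. The whole table had 33.6% of genes lower and 64.6% higher by the same call. nrf1, a transcription factor gene of mitochondrial biogenesis, rose 2.34-fold (control 17.9 FPKM, dead end 41.8 FPKM, q = 0.00437) in the authors' deposited table. In the fatty acid synthesis list, 31 of 32 genes were not in the table used here, and 1 was called, the chain elongase gene elovl8b. It fell 7.64-fold (control 8.25 FPKM, dead end 1.08 FPKM, q = 0.0363) in the authors' deposited table. Lists for lipolysis with lipid droplets (29 genes) and for ketone bodies (10 genes) had no member in the table used here.

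Markers of the sorted cell type were lower alongside the oxidation genes. Of 13 germ cell markers, 4 were not in the authors' deposited table, which held only genes with q under 0.05. Over all its genes, 33.6% were called lower. The 9 markers found there were all lower, between 2.17-fold and 11.8-fold, the median being 3.03-fold. Their summed level went from 10522 to 2355 FPKM, and none was at 0 in either group. Most of the control sum came from ca15b (4484 to 568 FPKM) and nanos3 (3543 to 906 FPKM). The vasa helicase gene ddx4 was 2.84-fold lower and the Piwi gene piwil2 11.8-fold lower in the authors' deposited table. The falls of acadm, ehhadh and acadl lay within the range of the marker falls and above their median. Since the 3 genes were chosen by their falls, that place is a description only. Only piwil2 fell more than acadl, and the next marker, ca15b, was 7.90-fold lower.

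Markers of 8 somatic cell types were in the table for 35 of 62 genes, and all 35 were higher. The table held only genes with q under 0.05, and 64.6% of all its genes were called higher. The other listed markers were not in it and were not analysed here. The summed level of the 35 was 856 FPKM with the control and 5075 FPKM with the dead end morpholino. The endoderm marker sox32 was the one listed at 0 in controls, and none was at 0 in dead end morphants. Their rises ran from 2.55-fold to 61.3-fold where both values were above 0. Among markers of yolk syncytial layer and liver, tissues that handle much lipid, 2 of 11 were in the table, both higher (summed level 491 FPKM against 1274 FPKM). The part of the germ cell and somatic markers in the falls of acadm, acadl and ehhadh was not tested.

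**Figure D3:**
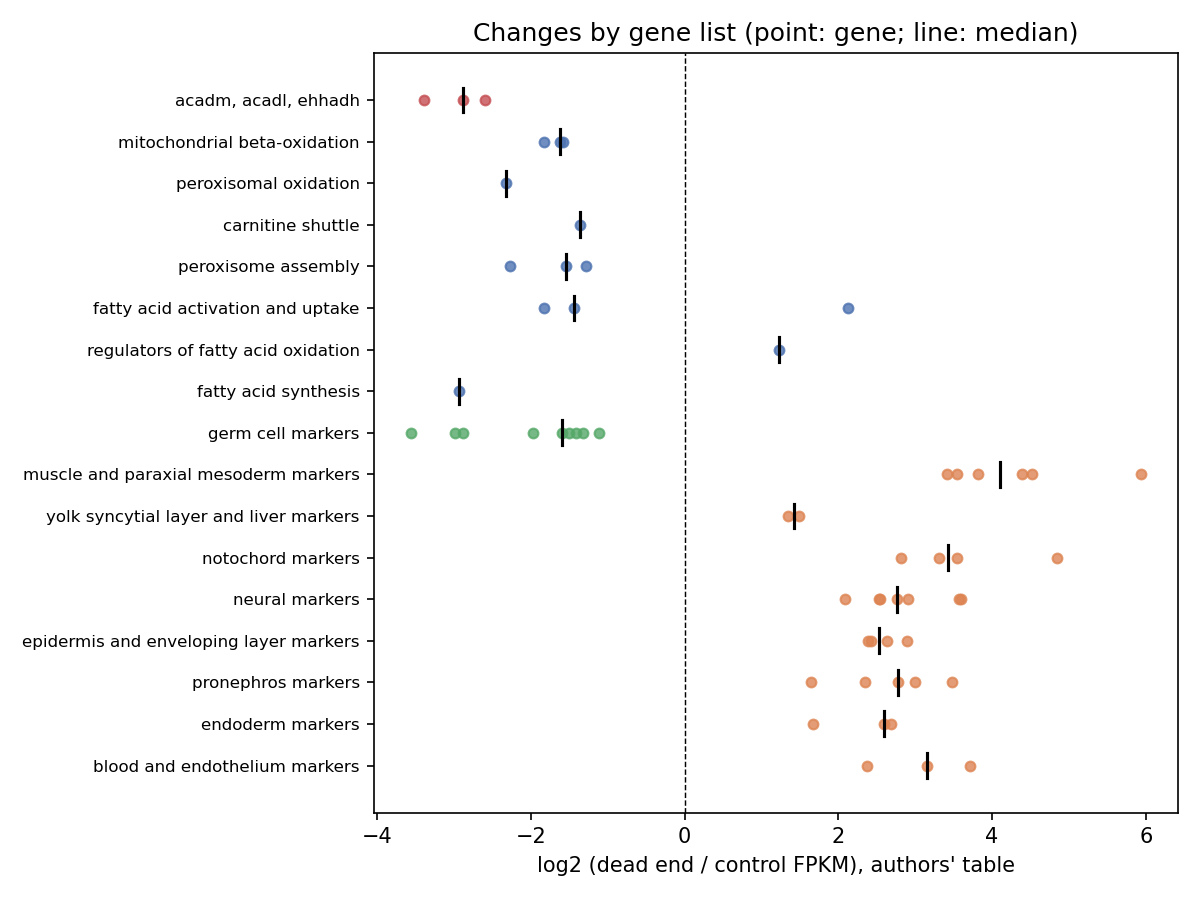
Log2 of the dead end level divided by the control level for acadm, acadl and ehhadh (red), other listed fatty acid and peroxisome genes (blue), germ cell markers (green) and somatic markers (orange); each point is a gene and each black line a median, and genes listed at 0 are left out. The red points, from -3.39 to -2.59, lie within the range of the green points, and all orange points lie above 0.

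Genes with the most similar pair of levels were looked up for each of the 3 genes. By distance over log2(FPKM + 1) in the 2 groups, the named gene most like acadm was fdx1, at a distance of 0.146, with a control level of 86.4 FPKM and a dead end level of 14.3 FPKM in the authors' deposited table. The next were herpud1 at a distance of 0.500 and HABP4 at 0.502. For acadl the nearest were angel1 (distance 0.221), pgam1b (0.276) and btd (0.281). For ehhadh they were pgam1b (0.0932), tpte (0.121) and sh3gl1a (0.129). The glycolytic gene pgam1b, at a control level of 20.3 FPKM and a dead end level of 2.49 FPKM in the authors' deposited table, was thus near both acadl and ehhadh. With 2 values per gene such likeness describes a level and a ratio and no more.

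**Figure D4:**
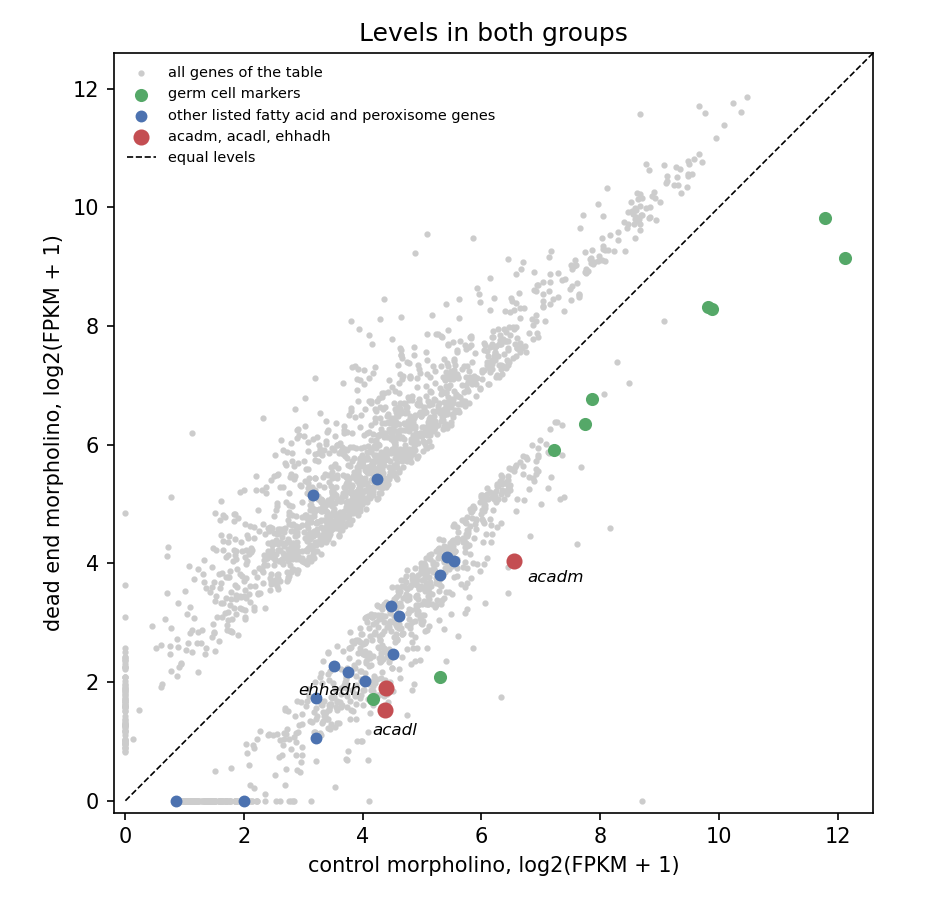
Level with the dead end morpholino (y axis) against level with the control morpholino (x axis), both as log2(FPKM + 1), for all 2477 genes of the table (grey), germ cell markers (green), other listed fatty acid and peroxisome genes (blue) and acadm, acadl and ehhadh (red). Points under the dashed line are lower in dead end morphants and include the 3 red points, acadm at 93.1 and 15.4 FPKM among them.

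The authors' enrichment tables, from a PANTHER overrepresentation test, held 21 terms for lower and 374 for higher genes. No term name in either contained a word for fatty acids, lipids, acyl groups, carnitine, carboxylic acids, mitochondria or peroxisomes. For the 498 uploaded lower genes, the authors' deposited table gave the broad term catabolic process 40 genes where 15.19 were awaited (2.63-fold, corrected p = 0.000148). The narrower terms there were organic substance catabolic process (35 genes, 2.54-fold) and cellular catabolic process (31 genes, 2.39-fold). Their corrected p-values were 0.00229 and 0.0345. No term with the word catabolic stood in the authors' deposited table for higher genes. The parent term metabolic process stood in both, at 1.57-fold with 181 lower genes and 1.55-fold with 431 higher genes. Its corrected p-values were 6.29e-08 and 6.89e-20. Which genes made up a term is not listed, so whether acadm, acadl or ehhadh were counted in it is unknown.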

How the data were processed

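Tools named in the submitters' processing notes are STAR 2.5.2b, cutadapt 1.10, Cuffdiff and Cufflinks 2.2.1. The same notes name 2 builds, Zv9 and GRCz10, with no role. Positions were taken as GRCz10, since those on chromosome 4 reach 74754136, past its end in Zv9. For the strand setting, the sources used here give nothing. The authors deposited 1 FPKM value per gene and group, so per the file headers the 2 libraries are combined. No standard deviation or test between libraries could be computed and the depth is unknown. The authors' deposited log2 ratio differed from that of the FPKM values by at most 1.34e-05. Each gene also has a p-value, a q-value and a test statistic (a score), all computed by the authors. The fold enrichment (a ratio) and corrected p-values of the term tables are also the authors', per the file headers.

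Genes were called by q under 0.05 and 1 FPKM or more in the higher group (2431 genes; 46 fell below). Folds are plain FPKM ratios, and none is given where a value is 0 (232 genes). Likeness and the plots of levels across genes used log2(FPKM + 1), on which the change of low genes is understated. The bar plot shows plain FPKM and the plot of changes the plain log2 ratio. Listed genes were matched by symbol, without regard to case, or by a table of gene names covering 2408 of 2477 identifiers; that table or RefSeq gene names held 228 of the 237 other listed genes. Symbols that RefSeq gives to the same gene were counted once. The 3 genes and the lists were chosen with earlier results of these data known. Named were the 3 genes, every called gene of the fatty acid and peroxisome lists, the 3 named genes most like each of the 3 (clone and locus names left out), and markers; rxrab, below the minimum, and hadhab were named besides. Alternatives were a stricter q, other FPKM minimums, pseudocounts and scalings. The planned comparison of proteins and promoters was not made, as no sequences were used here. A gene that the lists held is not reported here. The counting and the search for the most similar gene were tested on simulated data, in which the changed genes were given a passing q. That checked these steps only and not the authors' calls. Python 3.11.15, pandas 2.3.3 and numpy 2.4.6 were used.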

Additional observations from a re-analysis of the deposited data

How the results depend on the processing

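The log2 changes of acadm, acadl and ehhadh stayed below 0 in all 18 recomputed values, and 11 of these moved by over 1.5-fold. An added constant cannot reverse a ratio, nor can a positive median taken from a negative value, so those signs were fixed in advance. Only the scaling by germ cell markers could have given another sign. With 5 added to FPKM, acadl was at -1.85 and ehhadh at -1.70. The median log2 change of all called genes with both values above 0 was 1.26. Relative to it, acadm was at -3.85, acadl at -4.66 and ehhadh at -4.14. Relative to called ribosomal protein genes, the values were -3.82, -4.62 and -4.11. Relative to the median of 9 germ cell markers (-1.60), a scaling chosen after seeing the data, they were -0.99, -1.79 and -1.28, which is smaller than the plain ratios. These differences follow from the construction of each scale. The table holds genes the authors had called, so neither of the first 2 medians is that of all expressed genes. At q under 0.01, 2 of the 3 genes were called (acadl was not), and lower genes among the other listed ones went from 12 to 3. In the whole table that stricter q took lower genes from 832 to 416 and higher ones from 1599 to 1047. With no FPKM minimum the lower genes among the other listed ones were 13, and with at least 5 FPKM 11. In each case 2 higher listed genes were called. No paired analysis was possible because the table has 1 value per group, and for the same reason no library could be left out.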
